A study of Rattus norvegicus with 12 samples.

Results

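The genes described here build cholesterol, sense it, move it and turn it into steroids. They were chosen by name: 36 genes, matched to every gene probe on the array whose gene name was one of them, out of 25885 gene names on the array. They fell into 7 genes of the mevalonate arm, 11 of the sterol arm, 7 of sterol sensing and transcription, 7 of transport and storage, and 4 of steroid synthesis. A total of 42 probes carried these names, with 2 probes each for Fdps, Insig2, Stard4, Npc1, Star and Srd5a1. Of these, 40 probes for 35 genes passed the filter on low signals and were tested. The probe of Cyp11a1 and the second probe of Star did not pass.

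Cerebella of Sprague-Dawley rats 1 day old gave the cultures, which were enriched in neurons. The 6 control cultures received the solvent, 0.001% DMSO, and the 6 ACE cultures received 1 µM acetamiprid, a neonicotinoid insecticide that acts on nicotinic acetylcholine receptors, in the same solvent from 2 to 16 days in vitro (DIV). All cultures shared 8 days in medium with 1% fetal bovine serum, then serum-free medium with insulin, transferrin and thyroxine, and were harvested at 16 DIV. A control and an ACE culture with the same replicate number were grown from a single lot of cells pooled from the neonates of a litter, so each of the 6 pairs compared sister cultures. These mixed cultures also hold glia, and in such bulk RNA fewer cells of a type and less RNA per cell cannot be told apart.

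Cholesterol is built from acetyl-CoA through mevalonate to squalene, which is closed into lanosterol and trimmed to cholesterol. When sterols in the endoplasmic reticulum run low, SCAP carries the SREBP transcription factors to the Golgi for release, and INSIG proteins hold them back when sterols are plentiful, while the LXR receptors respond to oxysterols and switch on efflux genes. The brain makes nearly all of its own cholesterol, astrocytes supply neurons with it on apolipoprotein E, and cholesterol brought into mitochondria by StAR is the start of neurosteroid synthesis.

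The upstream sequences of 5 members are shown. Acat2, Ebp and Soat1 were higher in ACE in all 6 pairs on their representative probe. Hmgcs1 and Insig1 are textbook SREBP targets. The second Npc1 probe and that of Hsd3b1 also had the same direction in all 6 pairs, and their promoters are not printed. RefSeq promoters of the assembly GRCr8 were matched for 30 of the 36 members. Each run is the 250 bases before the start of the gene, 5′ to 3′ on the gene's strand. Capitals mark CCAAT, the box bound by NF-Y, a partner of SREBP, and CACNCCAC, a short form of the sterol regulatory element, each searched on both strands. The same stretch of Npc1 and of Hsd3b1 holds 0 matches to either.
Hmgcs1 (GRCr8 chr2:53382054-53382303, plus strand): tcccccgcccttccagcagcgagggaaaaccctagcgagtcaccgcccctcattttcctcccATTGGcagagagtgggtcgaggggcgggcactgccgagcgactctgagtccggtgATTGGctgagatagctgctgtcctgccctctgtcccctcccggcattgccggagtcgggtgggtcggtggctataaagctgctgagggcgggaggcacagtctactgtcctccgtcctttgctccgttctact
Acat2 (GRCr8 chr1:50100590-50100839, plus strand): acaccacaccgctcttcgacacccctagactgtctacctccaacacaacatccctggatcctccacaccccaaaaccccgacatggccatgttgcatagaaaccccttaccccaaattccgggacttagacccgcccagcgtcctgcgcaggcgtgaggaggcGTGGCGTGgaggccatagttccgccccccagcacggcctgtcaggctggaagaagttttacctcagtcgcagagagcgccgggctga
Ebp (GRCr8 chrX:16971212-16971461, plus strand): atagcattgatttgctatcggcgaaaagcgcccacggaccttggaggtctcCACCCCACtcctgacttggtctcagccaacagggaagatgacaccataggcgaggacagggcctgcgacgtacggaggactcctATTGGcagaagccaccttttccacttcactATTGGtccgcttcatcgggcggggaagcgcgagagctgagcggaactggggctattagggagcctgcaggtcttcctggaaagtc
Insig1 (GRCr8 chr4:8057770-8058019, minus strand): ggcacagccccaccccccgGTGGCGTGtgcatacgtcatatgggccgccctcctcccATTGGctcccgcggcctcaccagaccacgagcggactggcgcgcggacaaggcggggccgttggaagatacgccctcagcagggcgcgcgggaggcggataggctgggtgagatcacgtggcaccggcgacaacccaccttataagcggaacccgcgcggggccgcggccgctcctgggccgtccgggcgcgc
Soat1 (GRCr8 chr13:71147673-71147922, minus strand): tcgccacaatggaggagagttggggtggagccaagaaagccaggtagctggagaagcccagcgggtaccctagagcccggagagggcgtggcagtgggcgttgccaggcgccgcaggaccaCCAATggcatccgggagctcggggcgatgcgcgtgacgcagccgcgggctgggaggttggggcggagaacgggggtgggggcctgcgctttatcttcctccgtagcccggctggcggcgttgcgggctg

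In the window from 250 bases before to 50 bases after the start, CCAAT was present in 19 of the 30 members (63.3%), against 37.5% of all 33469 RefSeq promoters. It was present in 12 of the 15 matched enzymes of cholesterol synthesis. CACNCCAC was found in Acat2, Ebp and Insig1, 3 of 30 members (10.0%), against 5.80% of all promoters. The longer form TCACNCCAC, which contains the shorter one, was found in 0 members and in 1.12% of all promoters. The E-box CACGTG was found in Abca1, Insig1, Sc5d and Scap, 13.3% of the members, against 6.42% of all promoters. These matches describe letters in a window and show no binding.

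The first question was whether exposure to ACE changed the RNA level of these genes. No member passed the adjusted threshold: 0 of 40 member probes had an adjusted limma p below 0.05, as did 0.0% of all 23796 tested probes. The lowest adjusted p among the members, 0.141, was also the lowest on the array. Probes with different unadjusted p share this value, so it does not rank a member first. Among them were Soat1 and the second Npc1 probe, with unadjusted limma p of 0.00055 and 0.00064. At an unadjusted limma p below 0.05, 6 of 40 member probes (15.0%) were counted, against 16.6% of all tested probes. Of these, 4 were higher in ACE (10.0% of member probes, against 6.9% of all) and 2 were lower (5.0%, against 9.73% of all). The share of members past this threshold was thus near the background of the array. The count was 10 member probes without replicate 3 (25.0%, against 17.5% of all) and 3 without replicate 5 (7.5%, against 12.9% of all). It was 0 in the unpaired fit, which leaves the lots in the error, against 0.34% of all.

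The pairs gave a like picture. The difference had the same direction in all 6 pairs for 5 member probes (12.5%), 4 of them higher and 1 lower in ACE, against 11.6% of all tested probes. Control and ACE arrays overlapped for every tested member probe, and on the whole array only 3 probes (0.013%) did not overlap. A change of 1.5-fold or more was measured for 1 member probe, that of Hsd3b1, and for 410 of all tested probes (1.72%).

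The members differed little between the groups. Over the 35 tested genes the median difference, ACE minus control, was 0.016 on the log2 scale, against -0.0050 for all tested probes, with 21 genes higher and 14 lower. In 30 of 35 genes the difference was below 0.1 log2 in size, and in 34 of 35 the 95% interval of the difference lay within 0.3 log2 of 0. The exception was Hsd3b1. The median size of the difference was 0.038 log2 for the members and 0.062 log2 for all tested probes. Among probes with a mean log2 signal of at least 7, it was 0.032 for the members and 0.047 for all.

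**Figure D1:**
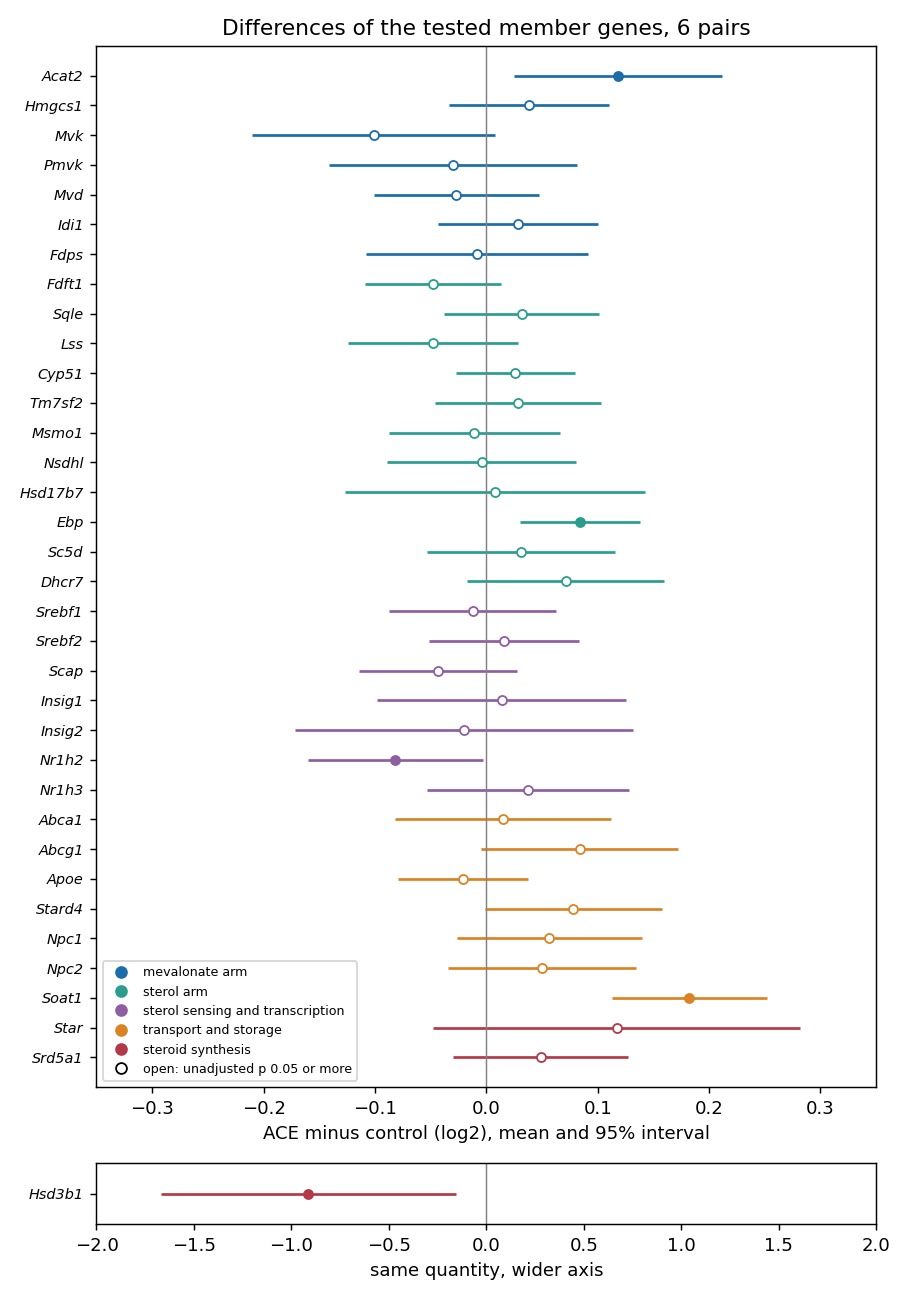
Difference between ACE and control (log2) for the 35 tested member genes, one row per gene, coloured by role. Points are means over 6 pairs, bars are 95% intervals of the limma fit and filled points have an unadjusted p below 0.05. All intervals but that of Hsd3b1, drawn on its own wider axis, lie within 0.3 of 0.

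In the mevalonate arm, 3 genes were higher and 4 lower in ACE, with a median difference of -0.0085 log2. Acat2, here the cytosolic thiolase that joins acetyl-CoA units in the opening step, was the only gene of this arm past the unadjusted threshold. Its log2 signal was 13.96 at the lowest, 14.28 at the median and 14.51 at the highest in control, and 13.96, 14.45 and 14.66 in ACE. The groups overlapped over most of their range, and the ACE array was the higher of its pair in 6 of 6 lots, by 0.0014 to 0.22 log2. The mean difference was 0.12 ± 0.039 log2 (SE, n = 6 pairs; limma adjusted p of 0.228). Its probe lies on rn4 at chr1:41940014-41940073. The unadjusted limma p, 0.021, was 0.060, 0.057 and 0.054 without replicate 2, 5 or 6 and 0.095 with another background correction (normexp).

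Hmgcs1 encodes the enzyme that makes HMG-CoA. Its log2 signal ranged from 15.70 over a median of 16.01 to 16.15 in control and from 15.75 over 16.02 to 16.21 in ACE. The groups were nearly the same in range, and the difference was 0.038 ± 0.030 log2 (SE, n = 6 pairs; limma adjusted p of 0.545), higher in 5 of 6 pairs. Its upstream sequence above holds 2 CCAAT boxes. Mvk, the mevalonate kinase, had the lowest difference of the arm at -0.10 log2, lower in 5 of 6 pairs, with a limma adjusted p of 0.327. The kinase Pmvk and the decarboxylase Mvd, which follow it, also lay slightly below 0, at -0.030 and -0.027 log2. Idi1, which isomerises the resulting isoprenoid unit, was at 0.028 log2, and Fdps, which joins such units, was at -0.0085 log2 with its second probe at -0.044 log2.

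In the sterol arm, 7 genes were higher and 4 lower, with a median difference of 0.026 log2 and a range from -0.048 to 0.084 log2. Ebp, the sterol isomerase that moves a double bond within the sterol ring, stood at the top of this range. In control arrays it gave a log2 signal of 12.60, 12.70 and 12.84 (lowest, median and highest), and in ACE arrays 12.67, 12.79 and 12.93. The shift was small and even: the pair differences all lay between 0.041 and 0.11 log2. The mean was 0.084 ± 0.022 log2, or 1.06-fold (SE, n = 6 pairs; limma adjusted p of 0.184). The Ebp promoter printed above was the only member promoter with both CCAAT and CACNCCAC, apart from that of Insig1.

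Sqle, squalene monooxygenase, catalyses a slow step of the pathway and is a well-known SREBP target. Control arrays ran at a log2 signal of 14.40, 14.50 and 14.62 and ACE arrays at 14.39, 14.53 and 14.63. The groups covered the same range, with a difference of 0.032 ± 0.029 log2 (SE, n = 6 pairs; limma adjusted p of 0.604). Squalene synthase, Fdft1, and lanosterol synthase, Lss, which act just before and after it, were both at -0.048 log2 and lower in 5 of 6 pairs each. Neither had a limma adjusted p below 0.387. The other sterol arm genes were Cyp51, Tm7sf2, Msmo1, Nsdhl, Hsd17b7, Sc5d and Dhcr7. Their enzymes help remove methyl groups from lanosterol or introduce or reduce double bonds. The differences of these genes lay between -0.011 and 0.071 log2. The highest of these, Dhcr7, encodes the reductase that yields cholesterol and had a limma adjusted p of 0.379.

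**Figure D2:**
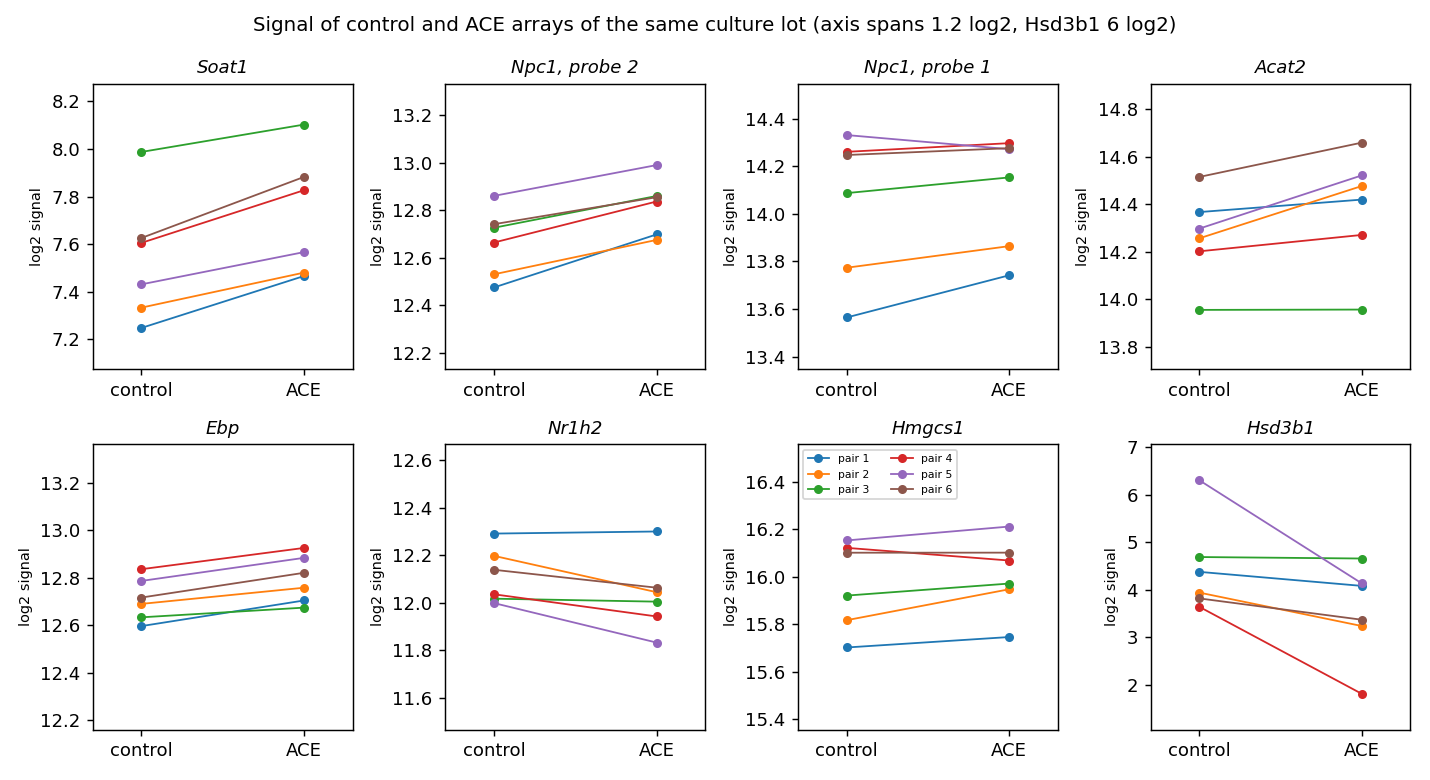
Normalised log2 signal of 8 member probes in the control and the ACE culture of each lot, joined by a line per pair. Panel axes span 1.2 log2, except 6 log2 for Hsd3b1. Lines slope up in 6 of 6 pairs for Soat1, the second Npc1 probe, Acat2 and Ebp and down in 6 of 6 for Hsd3b1.

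Among the genes that sense sterols, 3 were higher and 4 lower in ACE. Srebf2, the SREBP that mainly drives cholesterol synthesis, had a log2 signal of 12.81, 13.03 and 13.10 in control and 12.78, 13.06 and 13.11 in ACE. The groups coincided, and the difference was 0.016 ± 0.028 log2 (SE, n = 6 pairs; limma adjusted p of 0.793). Srebf1, which leans toward fatty acid synthesis, was at -0.012 log2, and Scap, the SREBP escort, at -0.043 log2.

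Insig1, the retention protein that is itself induced by SREBP, had a log2 signal of 11.95, 12.25 and 12.52 in control and 12.10, 12.19 and 12.44 in ACE. The ACE arrays lay inside the range of the control arrays, with 3 pairs higher and 3 lower and a difference of 0.014 ± 0.047 log2 (SE, n = 6 pairs; limma adjusted p of 0.899). The probes of Insig2 differed in sign, at -0.020 log2 for one and 0.12 log2 for the other, and neither passed the unadjusted threshold. Nr1h2, which encodes the widely expressed LXR beta, was lower in 5 of 6 pairs, by 0.17 log2 at most. Its mean difference was -0.082 log2 with a limma adjusted p of 0.286, and the unadjusted limma p was 0.086 to 0.12 without replicate 2, 4, 5 or 6. Nr1h3, encoding LXR alpha, was at 0.038 log2 in the other direction (limma adjusted p of 0.638).

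In transport and storage, 6 of 7 genes were higher in ACE, with a median of 0.057 log2. Soat1, the enzyme that esterifies cholesterol for storage in droplets, had the largest difference of all tested members apart from Hsd3b1. Its probe, minus strand on rn4 at chr13:71423884-71424171, reads 60 bases spread over 288 bases of the genome, so its match there is interrupted. It is shown because of that difference. Its adjusted p, the lowest of the array, is shared with other probes, among them the second Npc1 probe.
Soat1 probe: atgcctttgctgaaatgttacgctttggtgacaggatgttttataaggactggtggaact
The log2 signal of Soat1 was 7.25, 7.52 and 7.99 (lowest, median and highest) in control and 7.47, 7.70 and 8.10 in ACE. The groups overlapped, but within every pair ACE was higher, by 0.12 to 0.26 log2. The mean difference was 0.18 ± 0.029 log2, or 1.13-fold (SE, n = 6 pairs; limma adjusted p of 0.141), with a 95% interval from 0.11 to 0.25 log2. The exact sign-flip permutation over the pairs gave a two-sided p of 0.03125, the smallest that 6 pairs allow.

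Npc1 encodes the protein that exports cholesterol from lysosomes, and its probes were not alike. The second probe, minus strand on rn4 at chr18:3725679-3725738, had a log2 signal of 12.48, 12.70 and 12.86 in control and 12.68, 12.85 and 12.99 in ACE, higher in 6 of 6 pairs by 0.11 to 0.22 log2. Its difference was 0.15 ± 0.025 log2 (SE, n = 6 pairs; limma adjusted p of 0.141). The representative probe, at chr18:3725425-3725484 and therefore close by, gave 0.057 ± 0.035 log2, higher in 5 of 6 pairs, with a limma adjusted p of 0.446. Its groups ran from 13.56 to 14.33 in control and from 13.74 to 14.30 in ACE, so only the second probe of Npc1 was past the unadjusted threshold. Npc2, the soluble partner that hands cholesterol to NPC1, was at 0.050 log2, higher in 4 of 6 pairs.

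Abca1, the pump that loads cholesterol onto lipid-poor apolipoproteins and a standard LXR target, had a log2 signal of 10.09, 10.47 and 10.94 in control and 10.17, 10.48 and 10.86 in ACE. The ACE arrays lay within the control range, and the difference was 0.015 ± 0.040 log2 (SE, n = 6 pairs; limma adjusted p of 0.872). Abcg1, a pump that loads lipoproteins already formed, was at 0.084 log2 and higher in 4 of 6 pairs (limma adjusted p of 0.318). Stard4, a carrier that moves sterol between membranes, was at 0.078 log2 with its second probe at 0.12 log2 (limma adjusted p of 0.306 and 0.560). Abcg1 and both Stard4 probes missed the unadjusted threshold in the main fit. Abcg1 and Stard4 were past it with normexp, with the log2 values deposited by the authors, and without replicate 3 or 4.

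Apoe, the main lipid carrier secreted by astrocytes, was the only gene of this group below 0. The log2 signal of Apoe was 17.53, 17.99 and 18.13 in control and 17.55, 17.96 and 18.08 in ACE. The groups coincided, and the difference was -0.021 ± 0.024 log2 (SE, n = 6 pairs; limma adjusted p of 0.686), lower in 5 of 6 pairs. Quantile scaling sets values by rank within an array, so a change that leaves the rank of so bright a probe the same does not show. With arrays scaled by their 75th percentile in place of quantiles the difference of Apoe was -0.12 log2 (unadjusted limma p of 0.059), where the median of all tested probes was -0.034 log2. Astrocyte markers were lower in ACE for 13 of 15 genes, with a median of -0.045 log2. The mean level of that list was 12.57 to 13.35 in control and 12.49 to 13.33 in ACE. Its part in the values of Apoe and the other members was not tested.

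Of the 4 steroid genes, Star, Cyp11a1 and Hsd3b1 were not well above background on every array, while both probes of Srd5a1 were. Signals of Star, the mitochondrial cholesterol carrier, were well above background on 5 control and 5 ACE arrays. Its log2 signal was 4.21, 4.53 and 5.08 in control and 4.09, 4.70 and 5.15 in ACE, with wide overlap. The difference was 0.12 ± 0.069 log2 (SE, n = 6 pairs; limma adjusted p of 0.430), and the second probe of Star, which was not tested, was at -0.12 log2. The difference was 0.0018 log2 with the 75th percentile scaling, 0.024 log2 with normexp and 0.052 log2 without replicate 2, and without replicate 1 it was 0.16 log2 (unadjusted limma p of 0.049). Cyp11a1, the side chain cleavage enzyme that makes pregnenolone, was well above background on 3 control arrays and 1 ACE array and was not tested. Its log2 signal was 1.84, 2.77 and 5.01 in control and 1.75, 2.63 and 4.53 in ACE, and the pair differences ran from -3.25 to 2.65 log2.

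Hsd3b1, a member of the enzyme family that converts pregnenolone to progesterone, gave the largest difference. Its log2 signal was 3.64, 4.16 and 6.30 in control and 1.81, 3.72 and 4.65 in ACE. ACE was lower in 6 of 6 pairs, yet by amounts from 0.031 to 2.17 log2, and the groups overlapped. The mean difference was -0.91 ± 0.31 log2 (SE, n = 6 pairs; limma adjusted p of 0.240), with a 95% interval from -1.67 to -0.16 log2. The probe was well above background on 3 arrays of each group only, and with normexp the difference was -0.23 log2. It was -0.73 log2 without replicate 4 and -0.66 log2 without replicate 5, with unadjusted limma p of 0.067 and 0.050. The family has near-identical copies, so signal from a related transcript cannot be told apart.

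Srd5a1 encodes the reductase that commits progesterone to allopregnanolone. For this gene the log2 signal was 8.99, 9.13 and 9.45 in control and 9.04, 9.21 and 9.57 in ACE. The groups overlapped nearly throughout, and the difference was 0.049 ± 0.033 log2 (SE, n = 6 pairs; limma adjusted p of 0.481), with its second probe at 0.0070 log2.

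**Figure D3:**
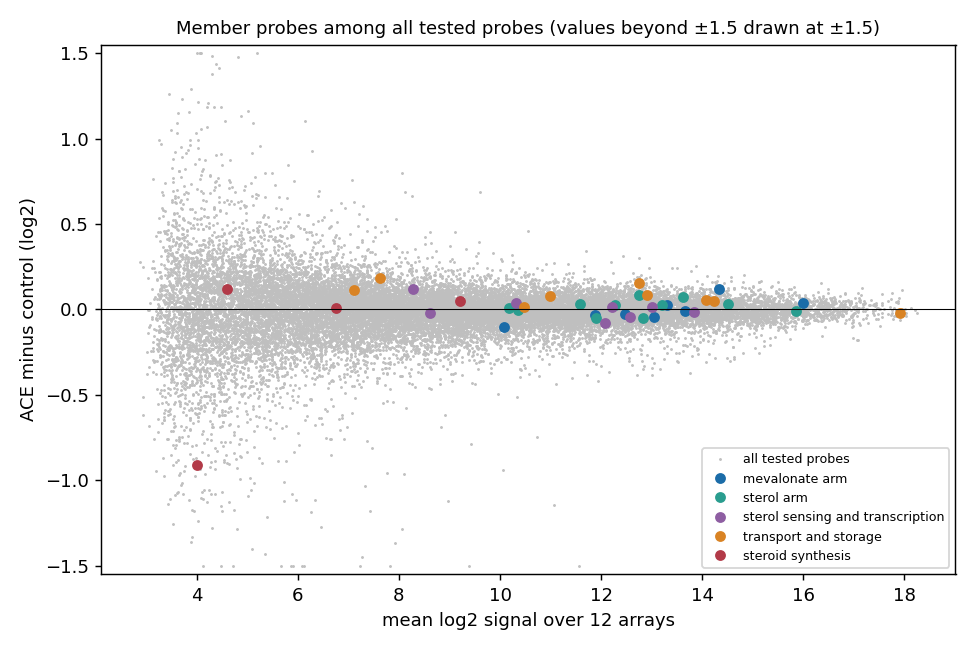
Difference between ACE and control (log2) against mean log2 signal over 12 arrays for all 23796 tested probes (grey) and the 40 tested member probes (coloured by role). Member probes lie inside the grey cloud, whose spread grows toward low signals, where Hsd3b1 and Star lie.

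The members, like most probes of the array, had a spread between replicate numbers that was larger than their mean difference between the groups. A replicate number stands for a culture lot and also for its slide, and scan batch and software version differed between some of them, so these cannot be told apart. The SD between the 6 lots was larger than the difference between ACE and control in 34 of 35 genes, against 96.4% of all tested probes. This sets a spread of single lots against a mean over 6 pairs, which are unlike quantities, and only describes the values. The lot SD was larger than the SD of the pair differences in 34 of 35, against 84.0% of all. Among probes with a mean log2 signal of at least 7, these shares were 97.8% and 91.7%. The median lot SD was 0.213 log2 for the members and 0.288 log2 for all tested probes, or 0.230 log2 for probes with a mean log2 signal of at least 7. The median SD of the pair differences was 0.072 log2 for the members and 0.094 log2 for all probes of that brightness.

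Of the 18 genes of the mevalonate and sterol arms, 12 were highest in lot 6, against 15.0% of all tested probes, and 8 were lowest in lot 3, against 22.9% of all. Acat2, Mvd and Fdft1 were among those at their lowest in lot 3. The sensing genes had another order, with 4 of 7 highest in lot 3 (22.6% of all probes), and 5 of 7 transport and storage genes were lowest in lot 1 (26.4% of all). These counts are descriptions and were not tested.

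By pair, 14 of the 18 synthesis enzymes were lower in ACE in pair 4, with a median of -0.065 log2, where 53.9% of all tested probes were lower. In pair 5, 15 of 18 were higher, with a median of 0.067 log2, where 47.9% of all tested probes were higher. The difference between pairs was not tested. The remaining pairs had 10 to 13 of 18 higher.

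**Figure D4:**
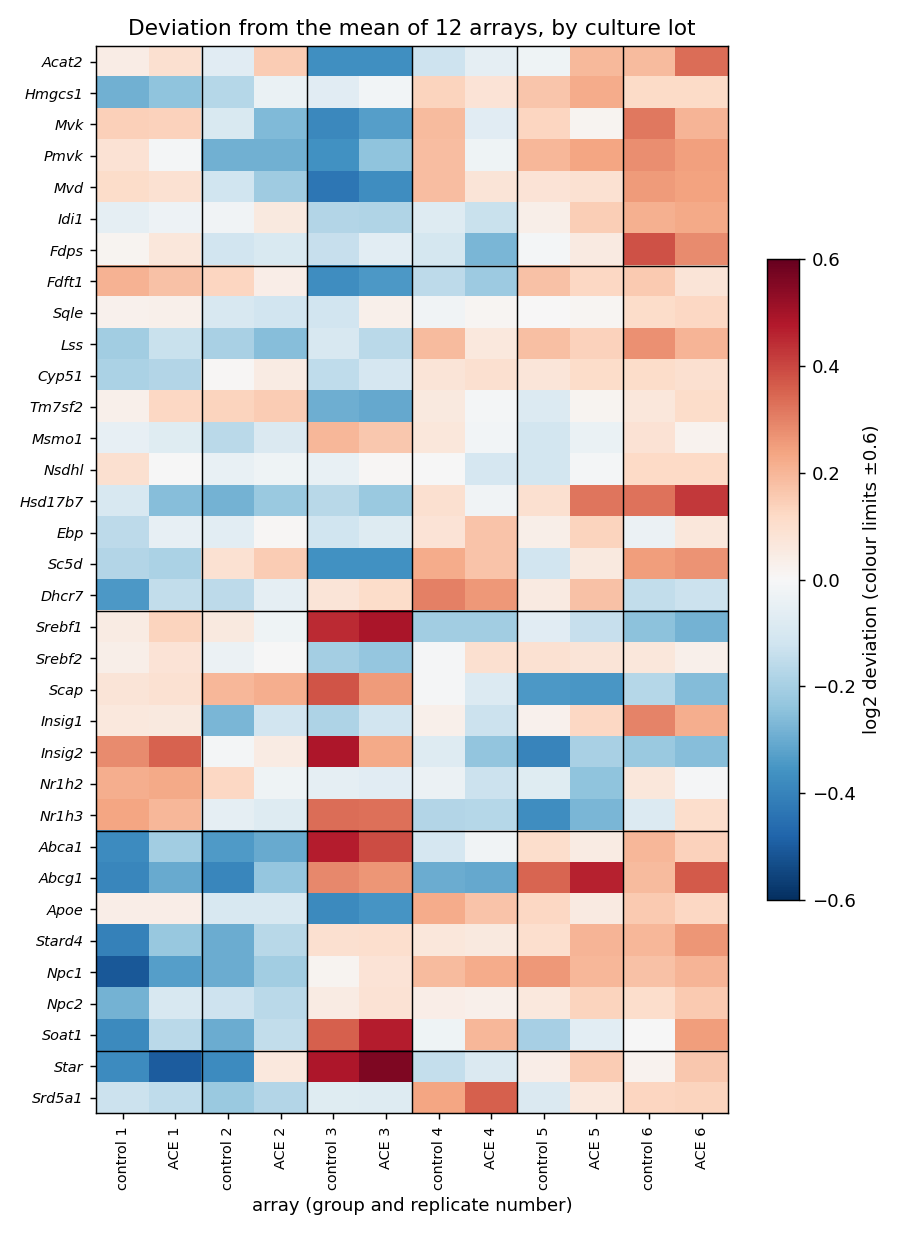
Deviation of each array from the mean of the 12 arrays (log2, colour) for 34 tested member genes, Hsd3b1 left out for its wider range. Columns are arrays, control and ACE of each lot side by side, and rows are ordered by role. Neighbouring columns of a lot look alike, and lot 6 is highest for 12 of the 18 synthesis enzymes.

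Of the other genes of the pathway, 64 of 70 were tested, with a median difference of 0.015 log2. In all, 8 were past the unadjusted limma threshold with a higher value in ACE and 4 with a lower one (6.9% and 9.73% of all tested probes), and 0 passed the adjusted threshold.

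Markers of other cells are given beside the members because the cultures are mixed. Neuronal markers were tested for 11 of 12 genes, with 8 higher and 3 lower in ACE and a median of 0.049 log2, and their mean log2 level was 9.41 to 9.95 in control and 9.47 to 9.97 in ACE. Oligodendrocyte markers had a median difference of 0.0083 log2 with 8 of 15 higher, and meningeal markers of -0.0070 log2 with 3 of 10 higher. Microglia markers were higher in 11 of 13 genes, with a median of 0.076 log2. The mean of this list was higher in 3 pairs and lower in 3, with pair differences from -0.086 to 0.44 log2. Of these markers 2 were past the unadjusted limma threshold on the higher side and 1 on the lower side (6.9% and 9.73% of all tested probes). The lower one was Cx3cr1, the fractalkine receptor, at -0.35 log2 (limma adjusted p of 0.147). Skeletal muscle markers were lower in 13 of 13 tested genes, with a median of -0.96 log2. Their mean level was 7.30 to 11.24 in control and 7.07 to 10.04 in ACE. By pair, the mean of the list was lower in 4 and higher in 2, with differences from -3.58 to 0.048 log2. Of the 13 genes, 2 were past the unadjusted limma threshold on the lower side. Myoglobin, Mb, was at -1.12 log2 and Myog at -0.75 log2 (limma adjusted p of 0.214 and 0.268). Their part in the members' values was not tested.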

How the data were processed

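RNA of 6 control and 6 ACE cultures was measured on 1-colour oligonucleotide arrays (Agilent). Per the file headers, the authors extracted the spot intensity values with Feature Extraction 11.0.1.1 (replicate 1) or 11.5.1.1 (others), which took off background and spatial trends but did not scale arrays to each other. A table of log2 values deposited by the authors, quantile normalised and centred per probe, served as an alternative (it correlated at 0.997 to 0.999 per array with the values computed here). Probe coordinates are those listed for each probe with the array design of replicate 3, and their build, rn4, is that of the file headers. Names were taken from the newer array design of replicate 3, since Acat2 and Sc5d carried older symbols in the other files.

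Outlier spots were dropped as missing values. Processed intensities were taken to log2 and brought to common quantiles over the 12 arrays, and spots of a probe (up to 10) were averaged. Probes above the 20th percentile of their array on at least 7 of 12 arrays, with at least 4 complete pairs, were kept (23796 of 30367). They were tested two-sided with limma 3.58.1 in R 4.3.3, with replicate as a block, and adjusted after Benjamini-Hochberg over all of them. The block follows the study's methods, since the cultures of an experiment came from the same lot. Deviations from the group means correlated at 0.434 to 0.909 between arrays sharing a number and at -0.433 to 0.384 otherwise. The representative probe of a gene is that with the highest mean signal. A lot SD is the SD of the pair means.

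The 75th percentile intensity was 1803 to 4384 per array, with 75.4 to 91.0% of gene spots well above background and 0 saturated. The number of arrays limits the precision. Slide and replicate were the same factor. Controls always lay at place 1 of a slide and ACE at place 3, so place and exposure cannot be told apart. Pairs 4 to 6 shared 1 of 4 scan batches.

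The members, the gene lists and the tests were chosen with earlier results of these data known. Signals by array were given for members past the unadjusted threshold with the same direction in 6 pairs and for members picked by role. Second probes were given where they differed in direction or passed that threshold, and those of Fdps, Stard4 and Srd5a1 were added later. Other genes were named from a change of 0.3 log2 on, past the unadjusted threshold in the same direction in 6 pairs, except those named under the other observations, which were chosen after their values were seen. Some genes are not reported here. The fits were tested on simulated data. Alternatives were the array scaling, background correction, value source, filter, block, test, probe choice, scan batch and leaving out each replicate.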

Additional observations from a re-analysis of the deposited data

Results flagged for a closer look

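Over 80 groups of 6 arrays (40 tested member probes in each group), 3 groups (3.75%) had an array far from the others by Dixon's criterion, and chance gives about 5%. For Fdps, farnesyl diphosphate synthase, control replicate 6 had a log2 signal of 14.03, above the next array at 13.67. For Tm7sf2, a sterol reductase, ACE replicate 3 was at 11.97, below the next at 12.27. For Srebf2, ACE replicate 3 was at 12.78, below the next at 13.01.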

How the results depend on the processing

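The count of member probes past the adjusted limma threshold was 0 in every alternative. The count past the unadjusted threshold, 6 with the replicate block, was 0 with no replicate block (limma without the pairing), where 81 of all 23796 probes were left. Leaving out each replicate in turn gave 3 to 10 member probes. The count was 10 without replicate 3 (25.0%, against 17.5% of all tested probes) and 3 without replicate 5 (7.5%, against 12.9%). In pairs 4 to 6, which shared a scan batch, it was 5 (12.5%, against 13.9% of all). By the exact signed-rank test it was also 5 (12.5%, against 11.6% of all). Ebp, Soat1 and the second Npc1 probe were past the unadjusted threshold whichever single replicate was left out. With the 75th percentile shift the 7 probes counted were 4 higher and 3 lower. With the deposited log2 values 6 were higher and 1 lower, and with normexp 6 and 1, against 4 and 2 in the main fit. Each count of 7 was 17.5% of the member probes, against 17.7%, 16.8% and 18.0% of all tested probes, in that order. Genes outside the main count passed in some alternatives, among them Mvk with the 75th percentile shift and Srd5a1, Abcg1 and Stard4 with normexp. The median difference of the members stayed between 0.0023 and 0.032 log2. Members near 0 changed sign: Srebf2 (-0.0011 to 0.027 leaving out a replicate) was -0.0071 with normexp and -0.0011 without replicate 4, Insig1 (-0.015 to 0.048) was -0.014 with normexp, -0.046 in pairs 4 to 6, -0.015 without replicate 2 and -0.0029 without replicate 5, and Abca1 (-0.015 to 0.033) was -0.013 in pairs 4 to 6 and -0.015 without replicate 1. The difference of Hsd3b1 ranged from -1.48 to -0.23 log2. The cause was not tested. Low signals limit Star, Cyp11a1 and Hsd3b1.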

Other observations

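Genes of fatty acid synthesis that are SREBP targets were mostly higher in ACE. Of 14 tested genes, 11 were higher and 3 lower, with a median of 0.045 log2, and the mean of the list was higher in 6 of 6 pairs, by 0.023 to 0.078 log2. Fasn, the fatty acid synthase, was at 0.12 log2, Acaca, which makes malonyl-CoA, at 0.18 log2, and Gpam, which starts glycerolipid synthesis, at 0.11 log2. These 3 of 14 were past the unadjusted limma threshold, as were 6.9% of all tested probes on the higher side, and 0 were past the adjusted one. They were named after their values were seen.

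Of the other genes of the pathway, 8 of 64 tested were past the unadjusted limma threshold on the higher side, as were 6.9% of all tested probes. Only those that handle cholesterol in lysosomes or esters are named here, a choice made after the values were seen. The rest of the 8 are not named, so those named do not stand for the 8. Lipa, the lysosomal esterase, was at 0.16 log2 and higher in 5 of 6 pairs, Nceh1, a neutral cholesteryl ester hydrolase, at 0.12 log2, and Stard3, a sterol carrier of late endosomes, at 0.11 log2, both higher in 6 of 6 pairs. The limma adjusted p was 0.264, 0.167 and 0.162. The 4 genes on the lower side were Nr5a1, a regulator of steroid genes, at -0.26 log2, Cyp21a1, the steroid hydroxylase, at -0.18 log2, Hsd17b10 at -0.087 log2 and Lcat, which esterifies cholesterol on lipoproteins, at -0.077 log2, each lower in 6 of 6 pairs. These genes were also named after their values were seen.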
